A study of Mus musculus with 6 samples.

Results

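The cell cycle and DNA replication genes followed here are 45 genes listed by name, of which 44 were measured by a probe set that names only that gene. They were taken from the 18193 genes that the arrays measured in this way, with 1 probe set per gene, the brightest over the 6 arrays. The members fall by known role into 22 genes of DNA replication and of the passage from G1 into S phase, 22 genes of G2 and mitosis, and Ccna2, the cyclin of S phase and G2, which was placed in neither class. Ccnb1 had no probe set that names it alone and was not analysed here. The arrays hold total RNA of lungs from mouse embryos at E18.5, an embryonic stage shortly before birth, 3 labelled GATA6 KO (KO 1 to KO 3) and 3 labelled wild type (WT 1 to WT 3). The study set GATA6 null lung against wild-type lung, GATA6 being a zinc finger transcription factor of the lung epithelium and other tissues. The labels name no strain, no allele, no Cre driver and no agent, and they do not say how many embryos each array holds, so the p-values measure only the spread between these arrays. Values are log2 of the deposited intensity plus 16, so that the floor is 4, and a gene is called bright where its mean in at least 1 group reached 6.88, the median of the genes' means.

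A dividing cell passes through its cycle in a fixed order. In G1 the MCM helicase is loaded onto replication origins, and E-type cyclins with their kinase release the E2F factors, which switch on the genes of S phase. In S phase CDC45 and the GINS complex activate the helicase and PCNA clamps the polymerases to the DNA. In G2 and mitosis B-type cyclins with CDK1, the Aurora and Polo kinases, the kinesins and the spindle checkpoint separate the chromosomes. In the fetal lung these transcripts come from every dividing cell type, epithelial, mesenchymal, endothelial and blood cells alike, and in whole tissue fewer dividing cells and less RNA per dividing cell cannot be told apart.

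Gata6 itself, given first because it is the targeted gene, read 11.58, 11.39 and 11.19 log2 in the arrays labelled KO 1 to 3, against 11.12, 10.26 and 10.42 in those labelled WT 1 to 3. It was thus higher in every array labelled KO, by 0.79 (SE 0.24), which missed the threshold in limma (unadjusted p = 0.0182, adjusted p = 0.964). None of its 3 probe sets read lower in the arrays labelled KO. Where its probe sets lie relative to any deleted part is not known here, so Gata6 checks neither the deletion nor the labels. Every direction below is thus one between the arrays as labelled. Fluidics station 1 processed WT 1 and WT 2, and station 2 processed the other 4 arrays, WT 3 among them. All WT arrays were scanned before all KO arrays, so that scan order and label cannot be told apart. Markers of lung were present, with Sftpc, a surfactant protein of alveolar type II cells, at 12.71, 15.74 and 15.37 log2 in the arrays labelled KO 1 to 3, against 15.60, 15.79 and 15.66 in those labelled WT 1 to 3. KO 1 was the low array for Sftpc. Tcf21, a factor of lung mesenchyme, lay between 14.29 and 14.44 in all 6 arrays.

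The promoters of the members hold different motif letters in the 2 classes, and 4 are printed as examples, 2 of each class. They are RefSeq windows of build GRCm38.p6 from 250 bases before to 50 bases after the start of the gene, read 5′ to 3′ on the strand of the gene. Capitals mark the letters searched for, on both strands: the E2F motif as TTTCCCGC, TTTCGCGC, TTTGCCGC or TTTGGCGC, the cell cycle homology region (CHR) as TTTGAA, and the CCAAT box bound by NF-Y. The MCM windows stand for the replication class and the windows of Ccnb2 and Cdk1 for the mitotic class.
Mcm5 (chr8:75109259-75109558, + strand): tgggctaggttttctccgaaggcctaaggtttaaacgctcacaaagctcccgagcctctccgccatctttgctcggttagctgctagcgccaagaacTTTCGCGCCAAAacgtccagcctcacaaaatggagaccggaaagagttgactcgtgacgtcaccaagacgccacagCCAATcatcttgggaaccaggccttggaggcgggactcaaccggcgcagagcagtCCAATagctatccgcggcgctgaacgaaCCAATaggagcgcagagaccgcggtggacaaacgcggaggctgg
Mcm3 (chr1:20820263-20820562, - strand): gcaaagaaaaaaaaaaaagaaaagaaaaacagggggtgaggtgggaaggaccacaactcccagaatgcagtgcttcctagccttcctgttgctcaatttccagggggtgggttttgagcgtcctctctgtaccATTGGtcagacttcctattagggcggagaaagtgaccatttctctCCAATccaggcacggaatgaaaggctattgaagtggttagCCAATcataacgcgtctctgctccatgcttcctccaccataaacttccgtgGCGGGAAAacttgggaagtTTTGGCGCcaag
Ccnb2 (chr9:70421505-70421804, - strand): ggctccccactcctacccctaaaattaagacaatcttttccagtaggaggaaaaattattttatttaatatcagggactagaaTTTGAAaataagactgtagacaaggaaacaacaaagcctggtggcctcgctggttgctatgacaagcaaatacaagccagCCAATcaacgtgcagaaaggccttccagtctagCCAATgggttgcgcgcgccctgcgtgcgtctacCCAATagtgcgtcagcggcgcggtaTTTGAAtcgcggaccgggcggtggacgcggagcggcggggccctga
Cdk1 (chr10:69352863-69353162, - strand): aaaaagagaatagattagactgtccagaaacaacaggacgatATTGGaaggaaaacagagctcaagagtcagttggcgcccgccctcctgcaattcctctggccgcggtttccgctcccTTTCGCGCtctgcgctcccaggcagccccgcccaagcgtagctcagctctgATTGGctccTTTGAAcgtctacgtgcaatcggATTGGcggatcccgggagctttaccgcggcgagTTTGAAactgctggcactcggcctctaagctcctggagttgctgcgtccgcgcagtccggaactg

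In the window of Mcm5, a subunit of the replicative helicase, a pair of E2F matches overlap at bases 98 to 109, on opposite strands. Ccnb2, a mitotic cyclin, has 3 CCAAT boxes that start at bases 164, 197 and 230 and CHR matches that start at bases 84 and 255. Cdk1, the kinase that drives entry into mitosis, has both kinds of match, an E2F match at bases 120 to 127 and CHR matches that start at bases 180 and 236. Windows were found for 36 of the 45 members. At least 1 E2F match stood in 40.0% of the 20 windows of replication members and in 5.26% of the 19 windows of mitotic members, against 2.26% of all 32851 windows. The CHR letters stood in 10.0% of the replication windows and in 73.7% of the mitotic windows, against 17.9% of all windows. CCAAT letters stood in 70.0% and 89.5% of them, against 37.4% of all windows. By gene, 8 of 18 replication members and 1 of 18 mitotic members had an E2F match, and 2 of 18 and 13 of 18 had a CHR match. Cdk1 was the 1 gene among these 36 with both. A match is a description of the letters and not of a bound site.

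The 44 measured members read high or low together from array to array, with wide spread within each label. The array labelled WT 3 read highest in 39 of the 44 members (88.6%), a place it held in 16.8% of the 9310 bright genes. The array labelled KO 2 read lowest in 27 of the 44 (61.4%), against 14.5% of bright genes. Measured as the mean distance of each gene from its own mean over the 6 arrays, the members stood at 0.23, -0.45 and -0.24 log2 in the arrays labelled KO 1 to 3, against -0.16, 0.04 and 0.58 in those labelled WT 1 to 3. The array labelled KO 1 thus lay above the arrays labelled WT 1 and WT 2, and the groups overlapped. The same mean over the bright genes ran from -0.09 to 0.07 and was also positive in KO 1, WT 2 and WT 3. Within a label, the median SD of a member was 0.44 log2 in the arrays labelled KO and 0.43 in those labelled WT, against 0.24 and 0.21 over the bright genes.

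**Figure D1:**
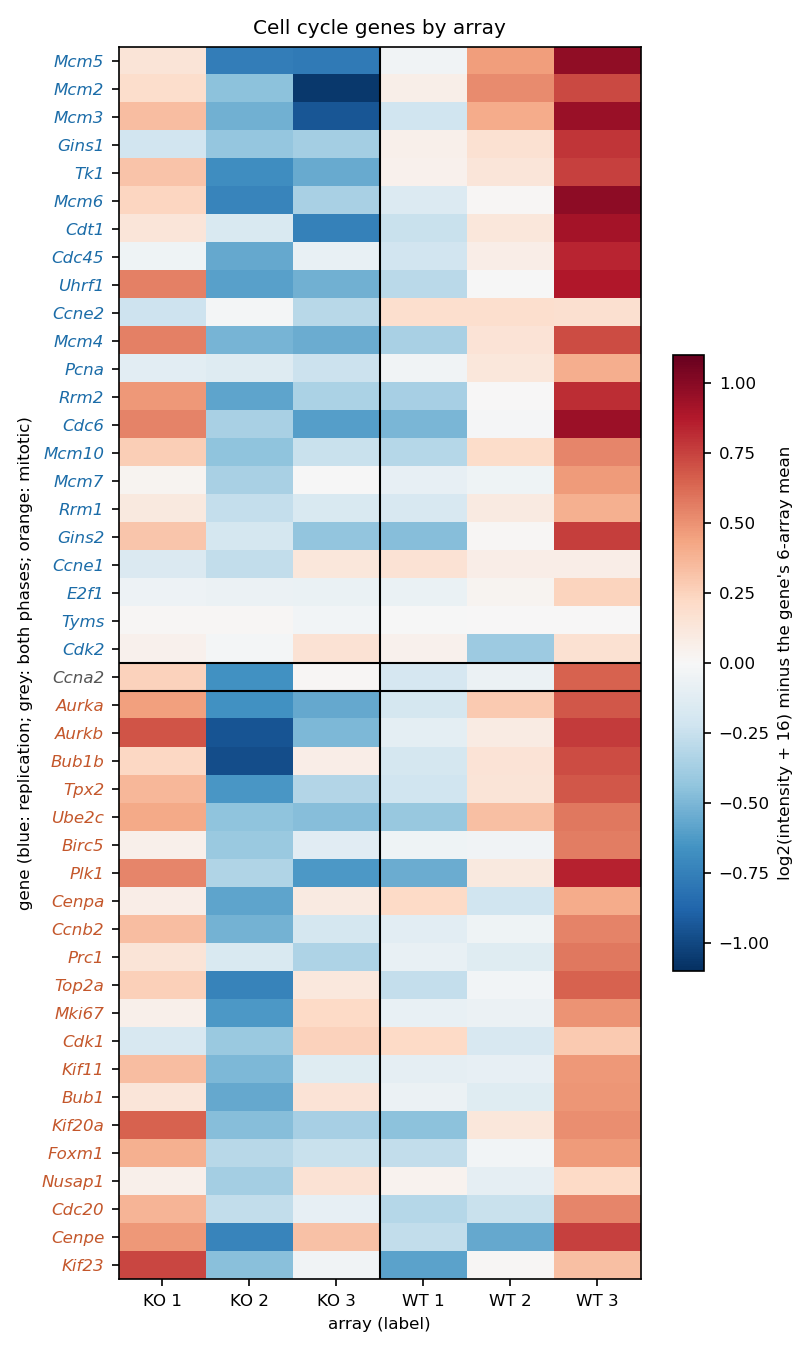
Each row is 1 of the 44 measured members and each column 1 array, KO left of WT; colour is log2(intensity + 16) minus the gene's mean over the 6 arrays. The column of WT 3 is red in nearly all rows, with the highest value in 39 of 44, and that of KO 2 is mostly blue, with the lowest value in 27 of 44.

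Between the labels, 40 of the 44 members, Tyms near the floor among them, read lower in the arrays labelled KO, and none passed the test. The median log2 difference was -0.27, against -0.03 over the bright genes, of which 55.0% read lower. In limma 0 of the 44 passed an adjusted p of 0.05 over all genes tested, where 1 of the 18193 genes (0.0055%) passed; the members' adjusted p lay between 0.964 and 0.995. At an unadjusted p under 0.05, 4 members read lower (9.09%) and 0 higher, against 2.59% lower of all genes and 4.18% lower of the bright genes. The 4 were Ccne2, Gins1, Mcm5 and Pcna, all of the replication class. Counted in either direction, the number depends on the arrays used: it was 0 without WT 2, 1 without KO 2, KO 3 or WT 3, 5 without WT 1 and 7 without KO 1. It was 0 with the replicate number as a block and 9 with the fluidics station as a block. In 3 members (6.82%) the highest array labelled KO was still lower than the lowest labelled WT, against 3.81% of all genes and 6.27% of bright genes, so that this share is near the background. Since the members move together, a count of 40 lower is not 40 separate observations. In 39 of the 44 the difference was smaller than the range of the arrays labelled KO, as in 8033 of the 9310 bright genes. In 41 of the 44 it was smaller than the range of those labelled WT, as in 7629 of the bright genes. Without the array labelled WT 3 the median was -0.05 and 31 of 44 read lower, and without KO 2 it was -0.13 and 32 read lower. Within station 2, where WT 3 is the only array labelled WT, the median was -0.72 and all 44 read lower.

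The replication class held the larger differences. Of its 22 members 21, Tyms near the floor among them, read lower in the arrays labelled KO, with a median of -0.33 and a range of -0.93 to 0.12, and 15 of the 22 were bright. As a mean distance from the genes' own means it stood at 0.16, -0.37 and -0.37 log2 in the arrays labelled KO 1 to 3, against -0.14, 0.11 and 0.61 in those labelled WT 1 to 3. The array labelled KO 1 lay above both WT 1 and WT 2. The means in KO and WT were -0.19 ± 0.30 and 0.19 ± 0.38 (SD, n = 3 each), so that the difference of -0.39 is about the size of the SD within a label. Without WT 3 the median was -0.12 and 17 of 22 read lower.

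The MCM helicase subunits, which are loaded at origins as a ring of Mcm2 to Mcm7, all read lower, with a median of -0.66 over the 6 genes. Mcm5 read 9.97, 9.07 and 9.06 log2 in the arrays labelled KO 1 to 3, against 9.79, 10.29 and 10.80 in those labelled WT 1 to 3. That is a difference of -0.93 (SE 0.35), or 1.90-fold lower, and the groups overlap, since KO 1 lies above WT 1. All 3 of its probe sets read lower, 1 of them near the floor in every array. Mcm2 read 7.89, 7.24 and 6.63 log2 in the arrays labelled KO 1 to 3, against 7.75, 8.21 and 8.42 in those labelled WT 1 to 3. The array labelled KO 1 again lay above WT 1, and the difference was -0.88 (SE 0.37), with both probe sets lower. Mcm3 differed by -0.76 (SE 0.43), with all 5 of its probe sets lower, 1 of them near the floor, and Mcm6 by -0.56 (SE 0.38). Mcm4 and Mcm7 differed least, by -0.34 (SE 0.40) and -0.22 (SE 0.19). Mcm5, the largest of the 22, had an adjusted p of 0.964 in limma, and without any 1 array its difference ran from -1.23 to -0.67.

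The factors that load and fire the helicase read lower as well, with Gins1 the clearest. Gins1, a subunit of the GINS complex that joins the helicase when it fires, read 6.91, 6.69 and 6.74 log2 in the arrays labelled KO 1 to 3, against 7.17, 7.29 and 7.91 in those labelled WT 1 to 3. The groups did not overlap, and the difference was -0.67 (SE 0.25) on the log2 scale. Its second probe set read near the floor and differed by -0.02. Gins2, of the same complex, differed by -0.21 (SE 0.38) and was dim, as were Cdc45, the partner of GINS, at -0.46 (SE 0.30), the loading factor Cdc6, at -0.28 (SE 0.47), and Mcm10, which helps the helicase to fire, at -0.28 (SE 0.27). Cdt1, the licensing factor that brings the MCM ring to the origin, differed by -0.53 (SE 0.37). Cdc6 and Gins2 turned to higher in the arrays labelled KO without WT 3, by 0.12 each.

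Of the genes that work at the fork and supply its nucleotides, Pcna kept the groups apart. Pcna, the sliding clamp, read 12.42, 12.39 and 12.30 log2 in the arrays labelled KO 1 to 3, against 12.50, 12.66 and 12.94 in those labelled WT 1 to 3. The ranges nearly meet, at 12.42 in KO 1 and 12.50 in WT 1, and the difference was -0.33 (SE 0.13), or 1.25-fold lower. Tk1, the thymidine kinase of cycling cells, differed by -0.62 (SE 0.35), and Uhrf1, which carries DNA methylation onto new strands, by -0.38 (SE 0.45). The ribonucleotide reductase subunits Rrm1 and Rrm2, which make deoxynucleotides, differed by -0.21 (SE 0.18) and -0.30 (SE 0.40). Tyms, the thymidylate synthase, read 5.12 to 5.16 log2 in all 6 arrays by its brightest probe set, near the floor, so that its difference of 0.00 (SE 0.04) carries no measurement of the gene's level.

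The regulators of the passage from G1 into S phase were mixed. Ccne2, an E-type cyclin, had the smallest unadjusted p of the members (0.0179) and read 8.76, 8.96 and 8.68 log2 in the arrays labelled KO 1 to 3, against 9.17, 9.17 and 9.16 in those labelled WT 1 to 3. The arrays labelled WT lay close together and above each of those labelled KO. The difference was -0.37 (SE 0.11), or 1.29-fold lower (adjusted p = 0.964 in limma). It did not follow the shared pattern: WT 3 was its lowest array of the label. Ccne1, the other E-type cyclin, was dim and differed by -0.20 (SE 0.17). Cdk2, the kinase of both, was the 1 replication member that read higher, at 8.41, 8.34 and 8.52 log2 in the arrays labelled KO 1 to 3, against 8.41, 7.96 and 8.53 in those labelled WT 1 to 3. It differed by 0.12 (SE 0.18), with WT 2 the low array, and turned to lower (-0.04) without it. E2f1, an activating E2F factor, was dim and differed by -0.13 (SE 0.18).

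**Figure D2:**
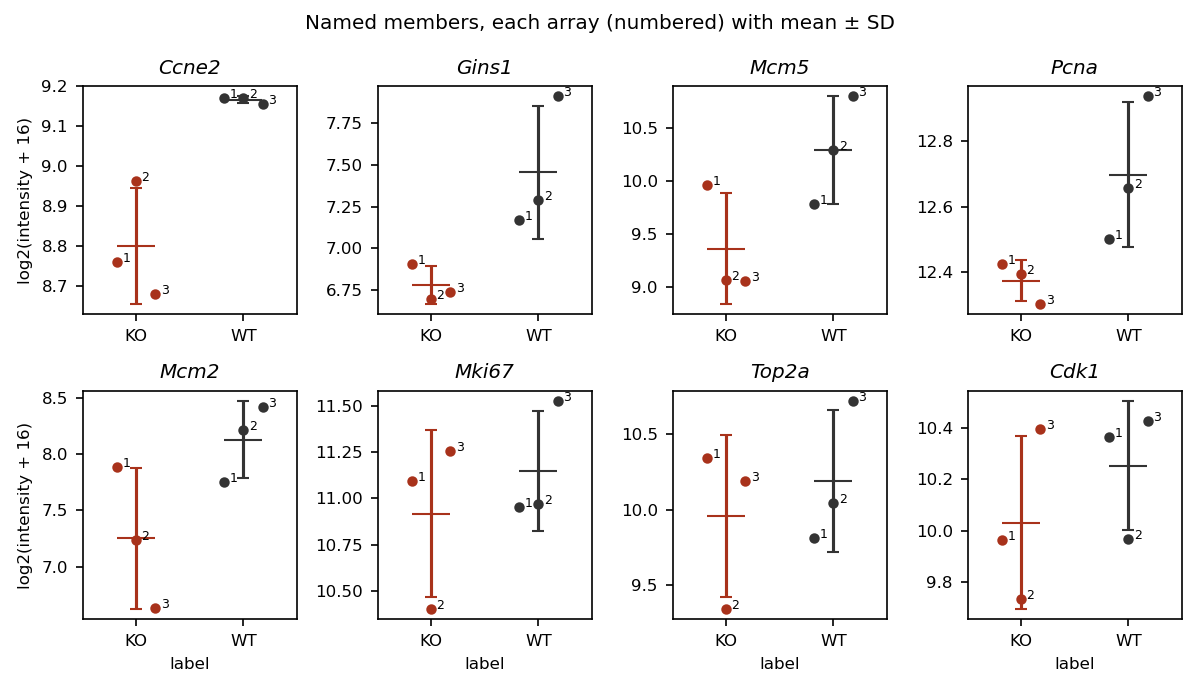
Points are single arrays, numbered by replicate, in log2(intensity + 16); dashes and bars are group means ± SD (n = 3), with KO left of WT, and each axis has its own range. Ccne2, Gins1 and Pcna have no overlap between the labels, while in the other 5 genes drawn KO and WT arrays overlap.

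The mitotic class had a smaller median difference and wide spread between arrays of a label. Of its 21 measured members 18 read lower in the arrays labelled KO, with a median of -0.23 and a range of -0.52 to 0.16, and 20 were bright. None had an unadjusted p under 0.05 in limma and in none did the groups separate. In all 21 the difference was smaller than the range of either label's arrays, as in 8033 of the 9310 bright genes for KO and 7629 for WT. The class stood at 0.31, -0.53 and -0.12 log2 in the arrays labelled KO 1 to 3, against -0.18, -0.03 and 0.55 in those labelled WT 1 to 3 on the mean distance from the genes' own means, with means in KO and WT of -0.11 ± 0.42 and 0.11 ± 0.39 (SD, n = 3 each). Without WT 3 the median was -0.02 and 13 of 21 read lower. Without KO 2 it was -0.05 and 11 of 21 read lower.

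Mki67, the Ki-67 antigen by which cycling cells are counted, read 11.09, 10.40 and 11.26 log2 in the arrays labelled KO 1 to 3, against 10.95, 10.97 and 11.53 in those labelled WT 1 to 3. The difference was -0.23 (SE 0.27), with KO 1 and KO 3 both above WT 1 and WT 2, and without KO 2 it was 0.02. Top2a, the topoisomerase that untangles sister chromatids, read 10.34, 9.34 and 10.19 log2 in the arrays labelled KO 1 to 3, against 9.81, 10.04 and 10.72 in those labelled WT 1 to 3. Its difference of -0.23 (SE 0.35) is smaller than the spread within either label, and of its other probe sets 1 is near the floor and 1 differed by 0.23. Cdk1 read 9.96, 9.74 and 10.40 log2 in the arrays labelled KO 1 to 3, against 10.37, 9.97 and 10.43 in those labelled WT 1 to 3. KO 3 lay above WT 1 and WT 2, and the difference was -0.22 (SE 0.21). Ccnb2, the mitotic cyclin with 3 CCAAT boxes, differed by -0.25 (SE 0.28).

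The kinases of mitosis overlapped between the labels. Aurka, which builds the spindle poles, read 7.52, 6.41 and 6.51 log2 in the arrays labelled KO 1 to 3, against 6.87, 7.35 and 7.75 in those labelled WT 1 to 3. KO 1 lay above WT 1 and WT 2, and the difference was -0.52 (SE 0.39). Aurkb, the kinase of the chromosomal passenger complex, differed by -0.50 (SE 0.48), and ran from 6.55 in KO 2 to 8.27 in WT 3. Its partner Birc5, the smallest p of the class, read 9.11, 8.64 and 8.93 log2 in the arrays labelled KO 1 to 3, against 9.01, 9.02 and 9.61 in those labelled WT 1 to 3. The difference was -0.32 (SE 0.22), with KO 1 above WT 1 and WT 2. Plk1, the Polo kinase, differed by -0.28 (SE 0.47), and Foxm1, the transcription factor of the G2 and mitotic genes, was dim at -0.11 (SE 0.26).

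Checkpoint and spindle genes differed by less than their spread. Bub1b, a kinase-like protein of the spindle checkpoint, read 7.50, 6.30 and 7.35 log2 in the arrays labelled KO 1 to 3, against 7.08, 7.42 and 7.99 in those labelled WT 1 to 3. Its difference of -0.45 (SE 0.41) was -0.08 without KO 2. Tpx2, which activates Aurora A on the spindle, read 7.38, 6.38 and 6.70 log2 in the arrays labelled KO 1 to 3, against 6.80, 7.16 and 7.70 in those labelled WT 1 to 3. KO 1 lay above WT 1 and WT 2, and the difference was -0.40 (SE 0.36). Cenpa, the histone that marks centromeres, read 9.04, 8.38 and 9.06 log2 in the arrays labelled KO 1 to 3, against 9.18, 8.74 and 9.37 in those labelled WT 1 to 3. KO 1 and KO 3 lay above WT 2, and the difference was -0.27 (SE 0.25), while its other 2 probe sets read near the floor.

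The differences of the other lower members were within about 1 SE of 0. The checkpoint kinase Bub1 differed by -0.19 (SE 0.27), the ubiquitin enzyme Ube2c by -0.33 (SE 0.35), and the microtubule bundler Prc1 by -0.25 (SE 0.25). The motors Kif11 and Kif20a differed by -0.19 (SE 0.28) and -0.12 (SE 0.41), and the spindle protein Nusap1 by -0.11 (SE 0.17). Ccna2, placed in neither class, differed by -0.27 (SE 0.32).

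The 3 mitotic members that read higher did so within the spread, and each had another probe set that read lower. By that probe set Kif23 differed by -0.14, Cenpe by -0.40 and Cdc20 by -0.24. The remaining probe set of Kif23 and that of Cdc20 were near the floor. The values below are of the brightest probe sets. Kif23, the kinesin of the central spindle, read 9.05, 7.86 and 8.28 log2 in the arrays labelled KO 1 to 3, against 7.73, 8.33 and 8.65 in those labelled WT 1 to 3. KO 1 and WT 3 were its high arrays, and the difference was 0.16 (SE 0.38). Cenpe, the kinesin of the kinetochore, read 8.17, 6.97 and 8.02 log2 in the arrays labelled KO 1 to 3, against 7.43, 7.14 and 8.45 in those labelled WT 1 to 3. Both labels hold high and low arrays, and the difference was 0.05 (SE 0.47). Cdc20, the activator of the anaphase-promoting complex, read 10.47, 9.82 and 10.01 log2 in the arrays labelled KO 1 to 3, against 9.78, 9.85 and 10.63 in those labelled WT 1 to 3. WT 3 was highest and WT 1 lowest, and the difference was 0.01 (SE 0.28). Without KO 1 all 3 turned to lower, at -0.17 each, and all 3 did so without WT 1. Cenpe and Cdc20 also turned to lower without WT 2, and Cenpe without KO 3.

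**Figure D3:**
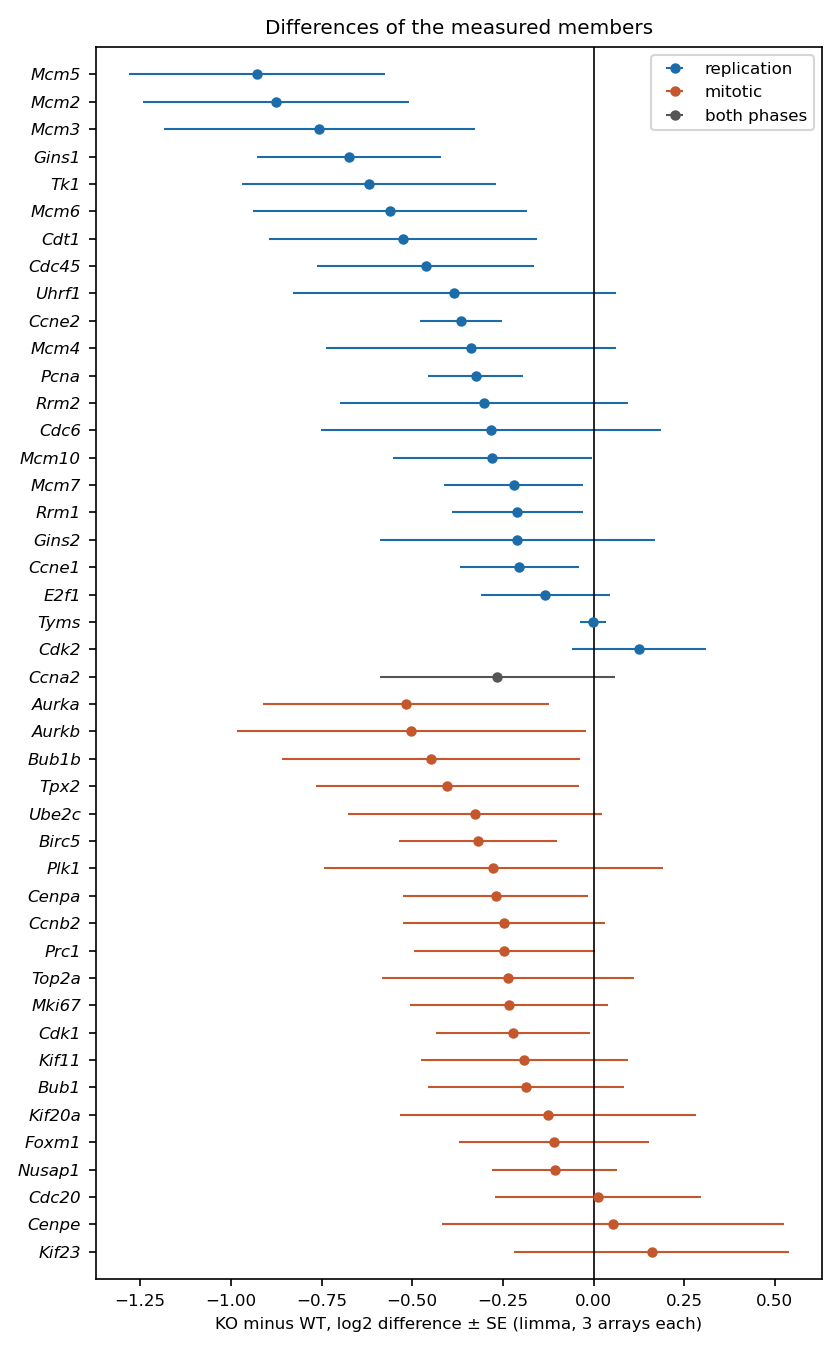
Points are the log2 difference KO minus WT of each of the 44 measured members with its standard error from limma (3 arrays each), replication members at the top, Ccna2 between and mitotic members below. The points run from -0.93 for Mcm5 to 0.16 for Kif23, and 40 of 44 lie left of 0, Tyms only just.

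Set against each other, the replication class differed more than the mitotic class by 0.16 log2, within the spread of the arrays labelled KO. The distance of the replication class minus that of the mitotic class was -0.16, 0.16 and -0.24 log2 in the arrays labelled KO 1 to 3, against 0.05, 0.14 and 0.06 in those labelled WT 1 to 3. The arrays labelled WT lay close together and the arrays labelled KO lay on either side of them, with KO 2 above all and KO 1 and KO 3 below all. In KO and WT the means were -0.08 ± 0.21 and 0.08 ± 0.05 (SD, n = 3 each). It kept its sign without each array in turn, between -0.28 without KO 2 and -0.08 without KO 3. KO 2 was lowest in 16 of the 21 mitotic members and KO 3 in 3, while KO 2 and KO 3 were lowest in 10 and 9 of the 22 replication members.

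**Figure D4:**
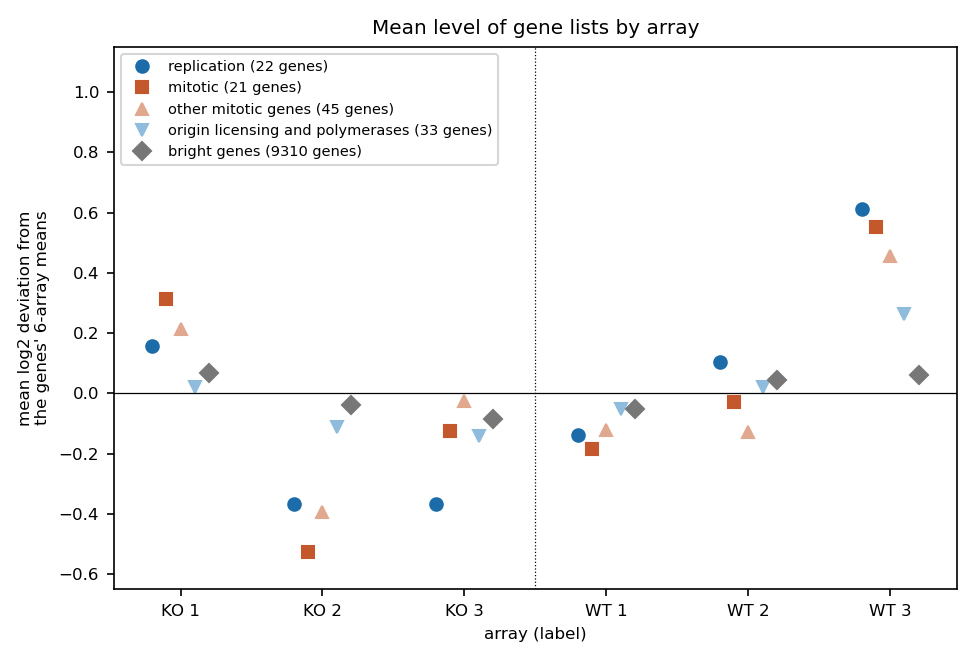
Points are the mean log2 distance of each gene list from its genes' own 6-array means, by array, KO left of WT. Replication and mitotic members reach 0.61 and 0.55 in WT 3, with the lists of other mitotic genes and of origin licensing and polymerases following, while the 9310 bright genes stay between -0.09 and 0.07.

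Of 112 other cell cycle genes in 5 lists, 110 were measured, 89 read lower in the arrays labelled KO and 0 passed in limma, with 2 lower (1.82%) and 0 higher at an unadjusted p under 0.05. That share is below the 2.59% of all genes and the 4.18% of bright genes. Their median was -0.14. Of 33 measured genes of origin licensing and polymerases, 28 read lower (median -0.15). The clearest was Dbf4, the activating subunit of the kinase that fires origins, at 8.80, 8.84 and 8.69 log2 in the arrays labelled KO 1 to 3, against 9.29, 9.29 and 9.19 in those labelled WT 1 to 3. The groups did not overlap, with a difference of -0.48 (SE 0.10), and WT 2 rather than WT 3 was the highest array (adjusted p = 0.832 in limma). Of the 2 probe sets of Dbf4 only 1, the brighter one used here, read lower in the arrays labelled KO. Dut, which keeps uracil out of DNA, differed by -0.34 (SE 0.14). Orc5 and Orc1 of the origin recognition complex were the higher ones with the smallest p, at 0.18 (SE 0.15) and, near the floor, 0.02 (SE 0.02).

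Of 17 genes listed with the Rb and E2F family 13 read lower (median -0.04). Lin9, Lin37, Lin52, Lin54 and Mybl2, which belong to neither family, are among the 17. E2f2, an activating E2F factor, read 7.74, 8.24 and 6.97 log2 in the arrays labelled KO 1 to 3, against 8.80, 8.94 and 8.90 in those labelled WT 1 to 3. The groups did not overlap, and the difference of -1.23 (SE 0.32), or 2.35-fold lower, did not pass (adjusted p = 0.935 in limma). E2f8, a repressing E2F factor, was dim and differed by -0.39 (SE 0.19). The higher ones with the smallest p were Rbl2, a pocket protein, at 0.19 (SE 0.18) and Lin52, near the floor, at 0.03 (SE 0.03).

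Of 8 genes listed with the G1 cyclins and kinases 6 read lower (median -0.09). The list also holds Myc, Mycn and the phosphatase Cdc25a. Ccnd3 differed by -0.34 (SE 0.18) and Cdc25a by -0.37 (SE 0.21). The D-type cyclins Ccnd2 and Ccnd1 read higher, by 0.35 (SE 0.20) and 0.05 (SE 0.42). Of 7 CDK inhibitors, which hold cells in G1, 5 read lower (median -0.12). Cdkn2b had a difference of -1.73 (SE 0.82), and its arrays ran from 7.28 to 10.40 log2 in KO and from 9.73 to 11.04 in WT. Cdkn2d had one of -0.24 (SE 0.12). Cdkn1c and Cdkn1a read higher, by 0.25 (SE 0.12) and 0.21 (SE 0.47).

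The list of 45 other mitotic genes repeated the array pattern of the mitotic members, at 0.21, -0.39 and -0.02 log2 in the arrays labelled KO 1 to 3, against -0.12, -0.13 and 0.46 in those labelled WT 1 to 3, and 37 of the 45 read lower (median -0.15). Espl1, the protease that cuts cohesin, was dim and differed by -0.53 (SE 0.30), and Ect2, which sets up cytokinesis, by -0.36 (SE 0.25). Mad2l1, of the spindle checkpoint, and Hmmr, a spindle protein, read higher by 0.28 (SE 0.17) and 0.21 (SE 0.33).

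Other measures overlapped in part with this order of the arrays. The median of bright probe sets that name no gene, minus that of bright probe sets that name 1, was -1.97, -1.19 and -0.66 log2 in the arrays labelled KO 1 to 3, against -0.87, -1.98 and -1.88 in those labelled WT 1 to 3. KO 1 and WT 3, the arrays with most cell cycle signal, are thus among the 3 low ones, together with WT 2. With this measure as a covariate the median difference of the members was -0.15, with 37 of 44 lower. Endothelial markers (4 of 4 measured) stood at 0.22, -0.55 and -0.72 log2 in the arrays labelled KO 1 to 3, against -0.24, 0.77 and 0.51 in those labelled WT 1 to 3, and their summed level was 34.65 to 38.40 and 36.57 to 40.60 log2 in the arrays labelled KO and WT. As with the mean over the bright genes, their sign was that of the members in every array. Their highest array was WT 2 and their lowest KO 3, where those of the members were WT 3 and KO 2. All 4 markers read lower in the arrays labelled KO, with a median difference of -0.75, against -0.27 over the members. Epithelial markers (6 of 6) stood at -0.21, 0.02 and -0.20 log2 in the arrays labelled KO 1 to 3, against -0.15, 0.15 and 0.39 in those labelled WT 1 to 3. WT 3 was highest, as in the members, but KO 1 was lowest and KO 2 lay near 0. These genes did not move together, and the low mean of KO 1 leans on Sftpc, at 12.71 there. Ager was also lowest in KO 1, while Epcam and Cdh1 were highest in KO 1, at 11.36 and 13.06. Nkx2-1 was highest in WT 3 and lowest in KO 2, as most members were, and Sftpb was highest in WT 2 and lowest in WT 1. The sum of the 6 epithelial markers was 69.94 to 71.28 in KO and 70.31 to 73.51 in WT, with Nkx2-1 dim. The part of these markers in the result was not tested.

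Other marker lists had other orders of the arrays. Erythroid markers (5 measured) were highest in WT 2 at 0.43 and stood at -0.11 in WT 3, with sums of 31.53 to 33.37 in KO and 32.46 to 35.15 in WT; Alas2 and Slc4a1 were bright and Klf1, Epor and Ermap near the floor. Leukocyte markers (6 of 6) stood at -0.39 in KO 1 and -0.05 in WT 3, with sums of 47.39 to 51.01 in KO and 48.68 to 51.81 in WT, and Cd3e at the floor. Thymocyte markers (4 of 4) were at or near the floor in every array, with sums of 18.03 to 18.22 in KO and 18.09 to 18.12 in WT. Mesenchymal markers (4 of 4) summed to 48.72 to 50.36 in KO and 49.78 to 50.76 in WT. Heart muscle (4 of 4) summed to 24.61 to 28.19 in KO and 25.73 to 27.29 in WT, with Nppa near the floor, and liver (3 of 3) to 16.62 to 21.57 in KO and 14.17 to 20.64 in WT, with Apoa1 near the floor. In WT 3 the mesenchymal and heart muscle markers stood at -0.04 and -0.16. Liver stood at 0.94, -0.72 and 0.27 log2 in KO 1 to 3, and at -1.53, 0.62 and 0.41 in WT 1 to 3. Its sign was that of the members in all arrays but KO 3, though its highest array was KO 1 and its lowest WT 1.

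**Figure D5:**
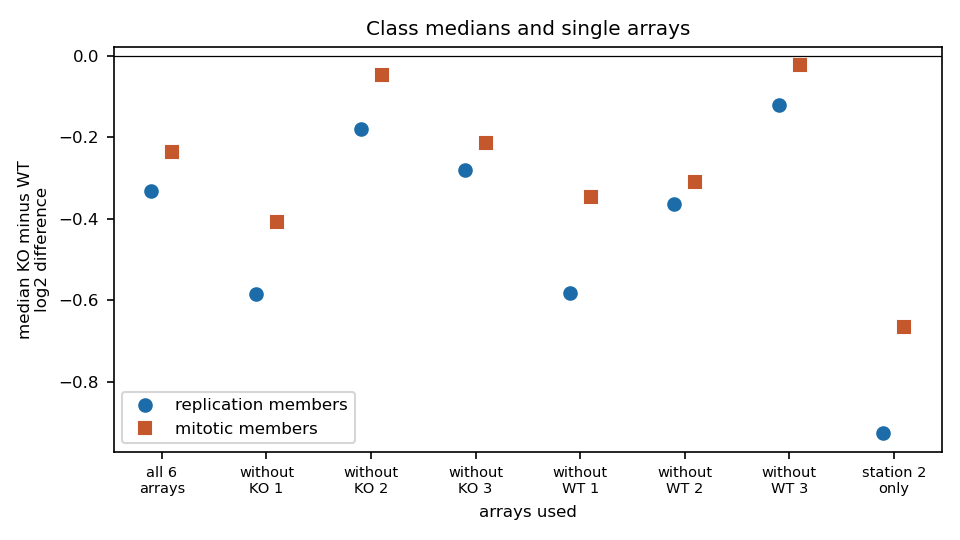
Points are the median log2 difference KO minus WT over the 22 replication and the 21 measured mitotic members, with all 6 arrays, without each array in turn, and with the 4 arrays of fluidics station 2 only. The medians come closest to 0 without WT 3, at -0.12 and -0.02, and lie farthest from it within station 2, at -0.93 and -0.67.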

How the data were processed

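Total RNA of 6 lung samples at E18.5 was measured on Affymetrix Mouse430_2 arrays. The authors deposited an intensity per probe set on a linear scale. Per the submitters' processing notes GCRMA and MAS5 were used, with no version, role or order, and the authors' scaling is not given in the sources used here. The arrays were taken as normalised to each other, with medians over all probe sets between 20.6 and 24.1. These medians lie near the low end of the intensities and do not test whether bright genes share a scale. Precision is limited by how few arrays there are.

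Of 45101 probe sets, 34945 named a single gene (34741 by an ID current in GRCm38.p6). The rest, left out, were 64 controls, 932 for several genes and 9160 unnamed. Intensities were used as log2 after adding 16, with the brightest probe set per gene and no filter. KO minus WT was fitted over all 18193 genes by linear models in limma (version 3.58.1, R 4.3.3) with a moderated variance that follows intensity. Its two-sided p-values were adjusted by Benjamini-Hochberg across the 18193 genes, and 0.05 was the threshold. The fit was run on simulated data in which genes vary independently and the added changes exceed the difference of any member. It was thus not tested on genes that move together or on differences as small as the members'. The list of members as a whole was given no p. Promoter windows came from RefSeq.

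The members and lists were chosen with earlier results of these data known. Members given in every array were Mki67, Top2a, Ccnb1 (not measured), Cdk1, Pcna and Mcm2, and per class the 5 bright members with the smallest p in each direction. Gata6 was added, and of the other lists the 2 genes with the smallest p per direction are named. Dbf4 and E2f2 were chosen for values in every array after those values were seen. Alternatives were other pseudocounts, scalings, filters, probe set choices, blocks, a covariate and leaving out each array.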

Additional observations from a re-analysis of the deposited data

How the results depend on the processing

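None of the 44 members passed under any of the 18 alternatives to the limma fit that included it. The fit to the brighter genes only held 35 of the 44. Over the 18 alternatives the adjusted p in limma of the 17 members given in every array by rule ran from 0.359 to 1. Of their alternative values 280 kept the sign and 26 did not. Part of this tally was fixed in advance. The replicate block, the fit without the trend and the fit to the brighter genes only cannot change a difference. Both station settings gave the same differences and were each counted. The count of all genes that passed was 17 after median centring, 32 with fluidics station as a block and 10 within station 2, 0 without the intensity trend (910 at an unadjusted p under 0.05), 0 with the covariate (1334) and 0 with the replicate block (605); leaving out each array it was 0 to 1. The labels do not say whether the replicate numbers pair the arrays. Over genes, residuals correlated at -0.613, 0.0971 and -0.311 between same-numbered arrays. No array was closest to its namesake (0 of 6). The residuals of a label are tied to each other by its mean, so these values cannot exclude a pairing by number. The block holds 1 array of each label per replicate number, so it cannot change a difference, and the members' median stayed at -0.273. No member passed with the block or without it.

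Both with the station block and within station 2, the median was -0.722 over the members, -0.926 over the replication members and -0.665 over the mitotic members. These rest on WT 3 as the lone array labelled WT, assumed to vary like the KO arrays. There Cdk2 was -0.104, Kif23 -0.254, Cenpe -0.724 and Cdc20 -0.53, all turned to lower. With probe sets without a suffix preferred, Top2a was 0.226, Cenpa 0.00779 and Cdc20 -0.245, and with the mean of all probe sets Cenpe was -0.173 and Cdc20 -0.0773. Leaving out each array, Mki67 ran from -0.402 to 0.0244, Top2a from -0.427 to 0.0728, Cdk2 from -0.045 to 0.239, Kif23 from -0.166 to 0.428, Cenpe from -0.214 to 0.44 and Cdc20 from -0.173 to 0.284. The cause of these turns was not tested. Of the 8 dim members Tyms read near the floor in every array, and signal over background was not tested for the other dim members.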
